A study of Mus musculus with 4 samples.

Results

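Fmr1, Fmr1nb and Aff2 are neighbours on mouse chromosome X, and their folding was followed here on both copies of the chromosome in Sirt7-/- (KO) and wild-type (WT) fibroblasts. These 3 genes, of 2220 RefSeq genes placed by their midpoints on the measured part of the chromosome, were taken with their flanks from 67 to 71 Mb (mm10), which hold 16 of the 588 bins of 250 kb with data and 40 of the 1461 bins of 100 kb. They were selected on measured values, the compartment score of the Fmr1 bin being higher on the cas copy and lower on the mus copy in KO, so those values are given as a description. Every other value from the same KO and WT matrices is likewise a description, and none was tested.

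The study made Hi-C, an assay that ligates and sequences pieces of DNA lying close together in the nucleus, from cultured tail tip fibroblasts (TTF), which came from female hybrids between mus and cas mice. The 4 samples were 2 Sirt7-/- replicates, which lack both copies of the gene for SIRT7, a nuclear NAD-dependent deacylase, and 2 WT replicates; both genotypes carry 1 mus and 1 cas copy of chromosome X. The labels name neither the inactive copy, nor the ages of the mice, nor whether replicates came from separate animals. The replicates of a genotype were combined in the deposited matrices, so each value below stands for 1 matrix per genotype and copy, has no replicate error and describes these matrices alone. The files hold no expression values, so the cells' identity as fibroblasts could not be checked against marker genes.

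Fmr1 encodes FMRP, an RNA-binding protein that controls translation, in neurons above all. In people, an expanded CGG repeat in the 5′ end of FMR1 silences the gene and causes fragile X syndrome. AFF2, a nuclear protein of the AF4 family, is the gene silenced by a second repeat expansion that causes a form of intellectual disability. Both repeats appear in people as fragile sites, gaps or breaks in the metaphase chromosome. Fmr1nb (Fmr1 neighbour) is known in people as a cancer/testis antigen. Chromosomes fold into an active A and a compact, gene-poor B compartment, and loci of a compartment share contact profiles. The inactive X lacks much of this pattern and is folded in a pair of megadomains that meet at Dxz4. The files measure folding and hold no measure of fragility, repeat length or expression.

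Fmr1 (gene ID 14265) lies at chrX:68678536-68717963 and is 39428 bp long, Fmr1nb (207854) at chrX:68761839-68804561 is 42723 bp long, and Aff2 (14266) at chrX:69360190-69872054 is 511865 bp long. All 3 are protein-coding. By their midpoints they fall in the 250 kb bins that start at 68.5, 68.75 and 69.5 Mb, so Fmr1 and Fmr1nb sit in adjacent bins and Aff2 further right, spread over 3 bins. The bin of Fmr1 also holds its antisense RNA Fmr1os, and a bin value cannot be split between genes that share it. Dxz4 lies 7.05 Mb to the right of Fmr1. RefSeq places 50 genes from 67 to 71 Mb, of which 13 are protein-coding, 29 pseudogenes, 4 long noncoding RNAs, 3 microRNAs and 1 a snoRNA. No protein-coding midpoint falls in 7 of the 16 bins.

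The stretches just before the starts of Fmr1 and Fmr1nb are shown because these neighbours lie on opposite sides of the edge described below. Both are on the + strand of GRCm38.p6, the assembly of the RefSeq table and the same build as mm10. They span chrX:68678291-68678535 (245 bases) and chrX:68761589-68761838 (250 bases), and capitals mark motif matches.
Fmr1: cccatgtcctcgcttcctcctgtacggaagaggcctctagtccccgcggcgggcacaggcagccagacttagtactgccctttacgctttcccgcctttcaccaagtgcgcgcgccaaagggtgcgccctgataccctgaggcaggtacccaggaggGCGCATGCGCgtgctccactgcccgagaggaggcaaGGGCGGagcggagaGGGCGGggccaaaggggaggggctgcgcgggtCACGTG
Fmr1nb: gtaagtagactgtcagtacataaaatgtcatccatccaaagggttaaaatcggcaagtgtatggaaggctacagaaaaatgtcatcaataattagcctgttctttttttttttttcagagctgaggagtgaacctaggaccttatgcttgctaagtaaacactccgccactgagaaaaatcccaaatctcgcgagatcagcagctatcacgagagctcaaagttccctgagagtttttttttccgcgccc
The 250-base window of Fmr1, of which the first 245 bases lie before the gene, holds 21 CpG dinucleotides and is 67.2% G or C. The median over 32851 such windows is 6 CpG and 52.4%. The capitals before Fmr1 are, from left to right, 1 copy of the palindromic NRF1 motif, which 0.782% of windows hold, 2 copies of the GC box GGGCGG, found in 32.7%, and 1 of the E-box CACGTG, found in 6.02%; both strands were searched. None of these motifs was found before Fmr1nb, whose window has 7 CpG and 41.6% G or C. The 250-base window of Aff2 has 7 CpG, 61.2% G or C and 3 GC boxes. Only its first 109 bases lie before the gene, and no GC box lies wholly within them. The HindIII site AAGCTT, at which the chromatin was cut, was found in none of these windows and in 6.22% of all. The matches are a description of the letters alone, and bins of 100 kb or more do not resolve a promoter.

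The compartment score used here sets a bin's average correlation with A bins against that with B bins, by subtraction and over bins at least 2 Mb away, where A and B are the 20% of bins, 118 each, at either end of the main pattern of the cas matrices. The A bins hold 337 protein-coding genes and the B bins 54. None of the 16 bins from 67 to 71 Mb belongs to A or B. On cas the scores of A and B bins lie far apart, whereas on mus they hardly differ. The mean score of A bins minus that of B bins, divided by 2, was 0.317 in KO and 0.359 in WT on cas. On mus it was 0.0146 in KO and 0.0112 in WT. The median size of the score over all bins was 0.244 in KO and 0.277 in WT on cas, against 0.0130 in KO and 0.0163 in WT on mus. The classes were set on cas, and a mus score is read here only against other mus bins. How many reads lie behind a matrix is not known. Neighbouring 250 kb bins, which noise makes less alike, had an average correlation of 0.184 in KO and 0.196 in WT on cas, and of 0.131 in KO and 0.149 in WT on mus, and the part of this gap in the results was not tested.

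On the cas copy, the Fmr1 bin was more A-like in KO than in WT, the Fmr1nb bin slightly so, and the Aff2 bin less so. The Fmr1 bin had a compartment score of 0.140 in KO and -0.0612 in WT. It thus lay on the A side of 0 in KO and on the B side in WT, with a difference of 0.201 that ranked 8 among 588 bins. The Fmr1nb bin stayed on the B side, at -0.244 in KO and -0.316 in WT, a difference of 0.0719. The Aff2 bin went the other way, at -0.350 in KO and -0.261 in WT, a difference of -0.0885 at the 6.89 percentile of all bins. In each genotype Fmr1 had the highest score of the 3 genes, while the order of Fmr1nb and Aff2 differed: in KO Fmr1nb stood above Aff2, and in WT below it.

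**Figure D1:**
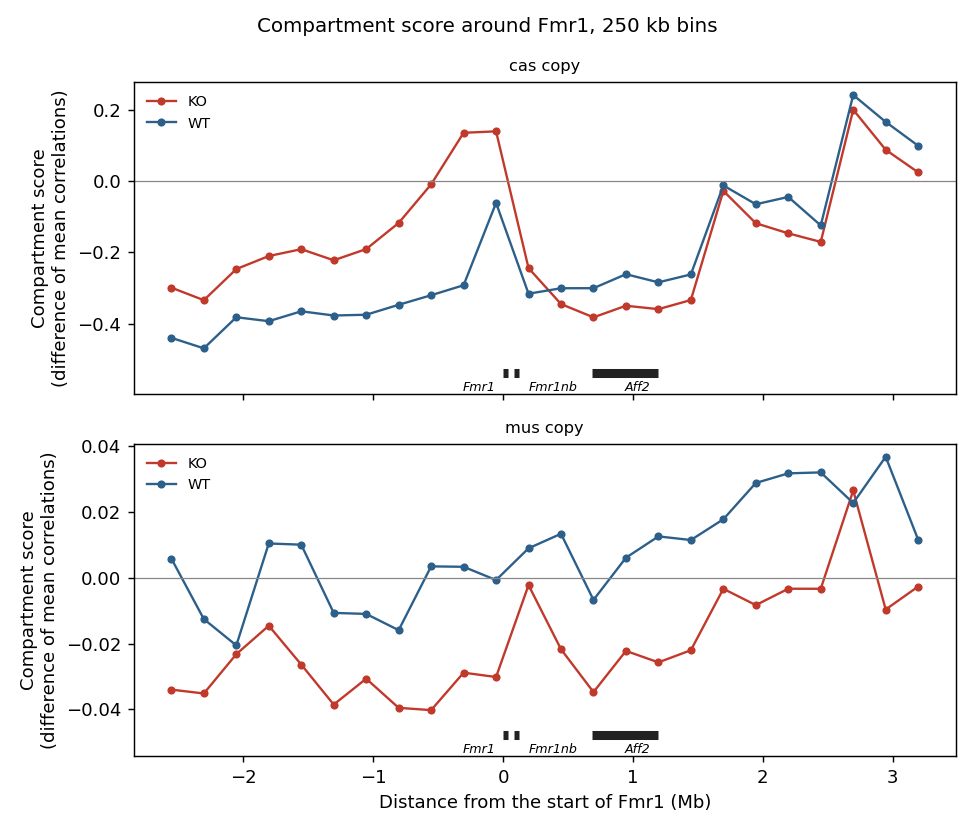
Compartment score of each 250 kb bin (y axis, difference of mean correlations) against its distance from the start of Fmr1 in Mb (x axis), on the cas copy (upper panel) and the mus copy (lower panel), with KO in red, WT in blue and black bars for the genes. On cas the KO line lies above WT left of Fmr1 and at Fmr1nb and below it from there to the right, and on mus it lies below WT throughout the 16 bins from 67 to 71 Mb; the vertical scales of the panels differ.

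The cas difference was largest just left of Fmr1. The bin at 68.25 Mb, which holds the pseudogenes Gm4910 and Gm5391, had a score of 0.136 in KO and -0.292 in WT, and its difference of 0.428 was the highest of all 588 bins. The next bin to the left, at 68 Mb with the microRNA gene Mir509, had -0.009085 in KO and -0.320 in WT, the second highest difference at 0.311. The bin at 67.75 Mb, with Mir201, Mir547 and the protein-coding 4933436I01Rik, had -0.117 in KO and -0.347 in WT. All 7 bins from 67 Mb through the Fmr1 bin were higher in KO by 0.155 or more, while 8.16% of all bins were higher by more than 0.1. The Fmr1nb bin was the last of this run, and the 8 bins from 69.0 Mb on were lower in KO. The lowest difference was -0.102 at 70.75 Mb, a bin of the pseudogenes Gm8410 and Gm6062, with -0.147 in KO and -0.0444 in WT.

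In all, 8 of the 16 bins were higher in KO on cas and 8 lower, against 61.1% higher over the chromosome, so the count does not set these bins apart, while the higher bins all lie left of the lower ones, with the split between the Fmr1nb bin and the next. The run of higher bins began at 57.25 Mb and ended at 69 Mb, over 47 bins, so Fmr1 and Fmr1nb lie at its right end. Only 2 of the 16 bins, those at 68.25 and 68.5 Mb, had a positive score in KO and a negative one in WT, as did 2.04% of all bins. The limits of the interval were set by the selection, and differences of the same sign lie on both sides of each limit. The cas difference was 0.174 in the first bin inside, at 67 Mb, and 0.183 in the bin just outside, and -0.102 in the last bin inside and -0.0463 in the bin beyond.

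The microRNA genes of the 2 bins that come next after the 68.25 Mb bin by their cas difference in the interval are shown by their mature sequences from RefSeq (5′ to 3′), with the seed, bases 2 to 8, in capitals. The 6 mature microRNAs come from 3 genes on the - strand.
mmu-miR-201-5p: uACUCAGUaaggcauuguucuu
mmu-miR-201-3p: uGAACAGUgccuuucuguguagg
mmu-miR-547-5p: cACUUGAGgauguaccaccca
mmu-miR-547-3p: cUUGGUACaucuuugagugag
mmu-miR-509-5p: uACUCCAGaauguggcaaucau
mmu-miR-509-3p: uGAUUGACauuucuguaaugg
Each of the 6 has a seed of its own, so the 3 genes do not form a seed family by this measure. Mir201 lies at chrX:67988099-67988156 and Mir547 at chrX:67988383-67988440, from the first to the last base of their mature arms, and Mir509 at chrX:68010115-68010170. No expression of these microRNAs was measured.

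With 100 kb bins the cas differences had the same signs at smaller size. The Fmr1 bin scored 0.0505 in KO and 0.00367 in WT, a difference of 0.0468 that ranked 37 of 1461, so the score was positive in both genotypes there. Fmr1nb scored -0.00855 in KO and -0.0366 in WT, a difference of 0.0280. Aff2 scored -0.0976 in KO and -0.0430 in WT, and its difference of -0.0546 lay at the 0.856 percentile. The bin at 68.2 Mb, which holds no gene midpoint, had the highest difference of the chromosome, 0.130. From 67 to 71 Mb, 24 of 40 bins were higher in KO, against 58.7% of all.

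Both terms of the Fmr1 bin's cas score differed between the genotypes. With A bins its correlation averaged 0.0925 in KO and 0.0103 in WT, and with B bins -0.0473 in KO and 0.0715 in WT. It was higher in KO with 103 of 118 A bins and lower with 117 of 118 B bins. The score difference by which Fmr1 was chosen is made from these correlations, so the counts only describe it. The median difference over A bins was 0.0812, against 0.00781 for the median bin of the chromosome, and over B bins -0.123, against -0.0149. Aff2 showed the opposite: it was lower in KO with 96 of 117 A bins and higher with 95 of 118 B bins, with median differences of -0.0451 and 0.0430. These lay at the 4.34 and the 87.3 percentile of all bins. Fmr1nb was higher with 70 of 118 A bins and lower with 101 of 118 B bins, its correlation with B bins averaging 0.163 in KO and 0.217 in WT. Its median difference over A bins, 0.0173, lay at only the 65.4 percentile of all bins. Over B bins it was -0.05585, at the 11.8 percentile.

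**Figure D2:**
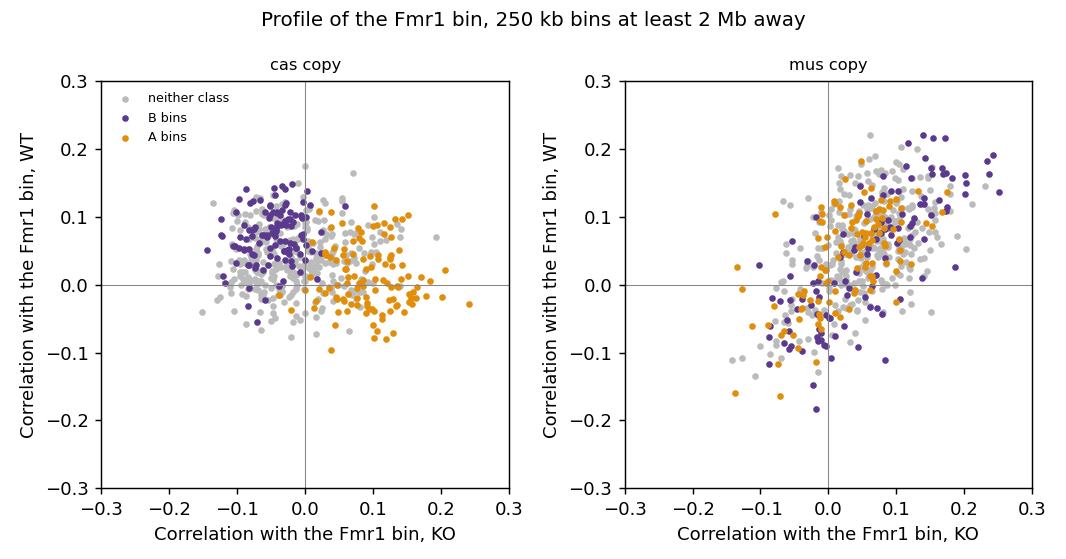
Correlation of the Fmr1 bin with every 250 kb bin at least 2 Mb away, in KO (x axis) and in WT (y axis), on cas (left) and mus (right), with A bins in orange, B bins in purple and other bins in grey. On cas, 103 of 118 A bins have a higher and 117 of 118 B bins a lower correlation in KO, and on mus the A and B bins overlap. The score difference by which Fmr1 was chosen is made from these correlations.

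The whole profile of the Fmr1 bin was unlike between the genotypes on cas. The correlation of its KO and WT profiles over 573 bins was -0.201, the 7th lowest of 588 bins, where the median bin had 0.848. These profiles hold the correlations with A and B bins that make the score difference by which Fmr1 was chosen. The low value is thus not separate from that choice. The Fmr1 profile was also flatter than that of the median bin. Its values had an SD of 0.0728 in KO and 0.0483 in WT, against medians of 0.105 in KO and 0.116 in WT. The part of this flatness in the low correlation was not tested. Fmr1nb and Aff2 had correlations of 0.845 and 0.874, close to the 0.848 of the median bin. Bins share libraries and lie next to each other, so these correlations are descriptions. With 100 kb bins the Fmr1 value was 0.0610, of the opposite sign, against a median of 0.494; Fmr1nb had 0.0920 and Aff2 0.422. In both bin sizes the value of Fmr1 was the lowest of the 3 genes and below that of the median bin.

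The partners of the Fmr1 bin named next were picked by the size of their cas difference, leaving out bins with no gene and those where the 100 kb bins gave the other sign; some of the bins left out had larger losses. The largest gains so picked were the bin of Tfe3, Gripap1 and Kcnd1 (7.75 Mb), with a correlation of 0.242 in KO and -0.0280 in WT, that of Pgrmc1 and Akap17b (36.5 Mb), with 0.201 in KO and -0.0179 in WT, and that of Rap2c and Mbnl3 (51.0 Mb), with 0.130 in KO and -0.0710 in WT. Tfe3 encodes a transcription factor of lysosome genes and Mbnl3 a splicing regulator, and all 3 bins are A bins. The largest losses so picked were with the bin of Gm14781 and Mageb17-ps (91.5 Mb), at -0.0878 in KO and 0.141 in WT, that of Samt2 (154.5 Mb), at -0.106 in KO and 0.105 in WT, and that of Mageb4 (86.25 Mb), at -0.103 in KO and 0.108 in WT. The first and the last of these are B bins.

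A few partners, picked among bins holding a gene, were alike in both genotypes. The cas correlations that were high in both were with the bins of F8, Fundc2 and Cmc4 (75.25 Mb; 0.152 in KO and 0.103 in WT), of Fgf16, Atrx and Magt1 (105.75 Mb; 0.102 in KO and 0.116 in WT) and of Vma21 and Prrg3 (71.75 Mb; 0.101 in KO and 0.0997 in WT). F8 encodes a clotting factor, Atrx a chromatin remodeller and Magt1 a magnesium transporter. Those low in both were with the bins of Gm4994 (131.75 Mb), at -0.0864 in KO and -0.0584 in WT, of Gm5944 (115.25 Mb), at -0.0708 in KO and -0.0552 in WT, and of Klhl4 (114.5 Mb), at -0.0498 in KO and -0.0529 in WT. The bins of F8 and of Atrx are A bins and that of Gm5944 is a B bin.

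Within the interval, pairs of bins across the edge between Fmr1 and Fmr1nb were less alike in KO on the cas copy, and so were pairs left of it. This edge was chosen after the values were seen. Pairs of bins left of it, 7 bins including that of Fmr1, had a mean correlation of 0.0604 in KO and 0.153 in WT, and pairs across it 0.0562 in KO and 0.118 in WT. Pairs among the 9 bins right of it had 0.151 in KO and 0.113 in WT. The 3 bins that Aff2 overlaps were more alike in KO, at 0.281, than in WT, at 0.154, so that they stood out as a square in the map of correlations. Among 100 kb bins the Aff2 pairs had 0.0741 in KO and 0.0229 in WT and pairs across the edge, there between the bins of the same 2 genes, 0.0155 in KO and 0.0218 in WT, while pairs on the left differed little, at 0.0364 in KO and 0.0401 in WT.

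**Figure D3:**
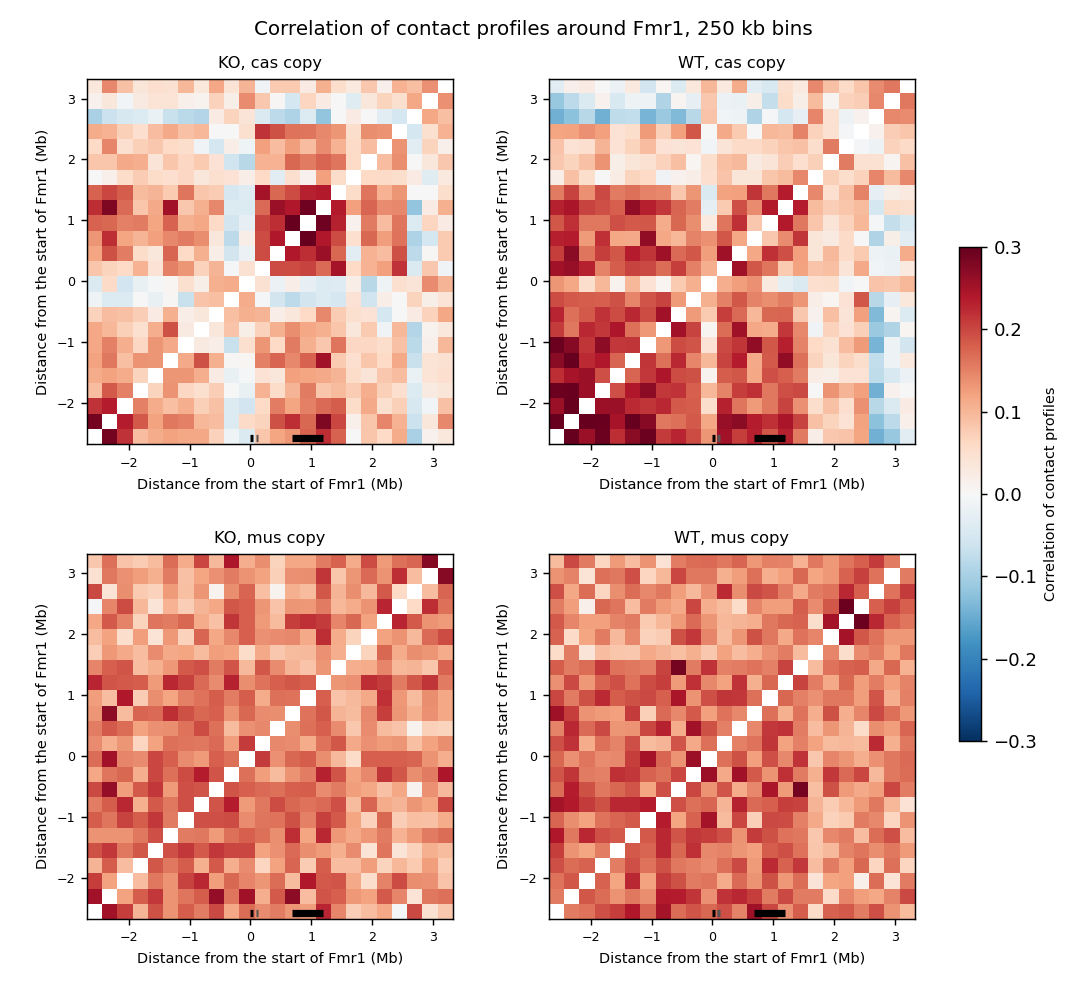
Correlation of contact profiles (colour scale) between pairs of 250 kb bins, both axes in Mb from the start of Fmr1, with KO left and WT right, cas above and mus below, black bars for Fmr1 and Aff2 and a grey bar for Fmr1nb. On cas the KO map has a dark square over Aff2 (mean 0.281) that reaches into the bins on either side. That map has pale or blue bands at Fmr1 and the bin left of it, where the WT map is red on both sides of Fmr1. The mus maps have no such square, the mean over Aff2 there being 0.176 in KO.

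The Fmr1 bin itself had low correlations with the bins on its right in the KO cas matrix. Its mean correlation with those 9 bins was -0.0148 in KO and 0.0475 in WT. With the Aff2 bin it was -0.0252 in KO and 0.0289 in WT, at the 14.8 percentile of pairs at like distance in KO and the 24.5 percentile in WT. With the adjacent Fmr1nb bin it was 0.0457 in KO and 0.108 in WT, against means of 0.184 in KO and 0.196 in WT for all adjacent bins. Fmr1nb and Aff2 were more alike, at 0.203 in KO and 0.161 in WT. At 100 kb Fmr1 and Fmr1nb had 0.0662 in KO and 0.0350 in WT, the reverse order, and Fmr1 and Aff2 0.0231 in KO and 0.0280 in WT. Averaged over all 100 kb bins that the genes overlap, Fmr1 and Aff2 differed by 0.000286, so their lower correlation in KO was seen with 250 kb bins and not with that average.

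The boundary score takes the pairs of bins that lie within 1 Mb on the same side of a bin and subtracts the average correlation of pairs across it from theirs. The pairs across are farther apart than the others, and no correction was made for that. On cas it had a peak over Fmr1nb in KO and none in WT. At 100 kb the Fmr1nb bin had 0.0504 in KO and 0.00748 in WT, and its difference of 0.0429 ranked 6 of 1371 bins. The bin at 68.8 Mb, into which Fmr1nb extends, had 0.0562 in KO and 0.00571 in WT, the largest difference of the chromosome. The Fmr1 bin had 0.0400 in KO and 0.00933 in WT. The Aff2 bin had the opposite order, 0.0164 in KO and 0.0243 in WT. Over all bins 56.7% had a higher score in KO. The KO value at Fmr1nb lay at the 90.0 percentile of KO bins, so higher scores were found elsewhere in that matrix. At 250 kb the Fmr1nb bin had 0.141 in KO and 0.00934 in WT, the largest difference of 551 bins, of which 46.5% were higher in KO. This score was added after the data were seen.

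**Figure D4:**
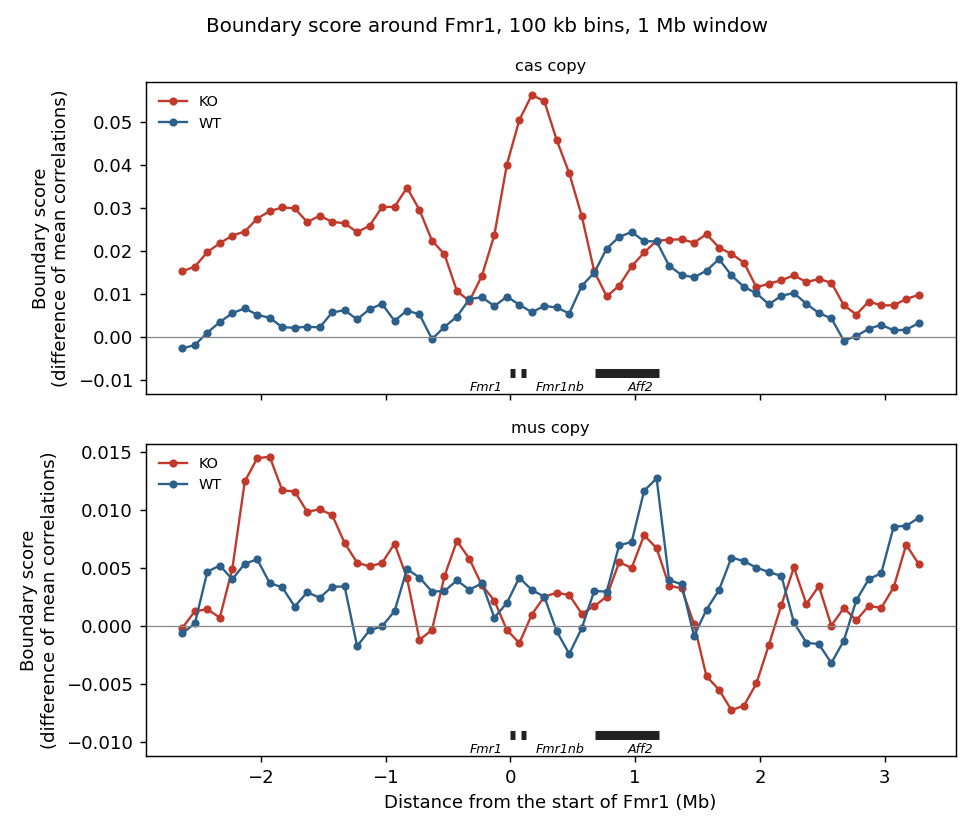
Boundary score of each 100 kb bin (y axis) against its distance from the start of Fmr1 in Mb (x axis), on cas (upper panel) and mus (lower panel), with KO in red, WT in blue and black bars for the genes; the vertical scales differ. On cas the KO line peaks at 0.0562 next to Fmr1nb, where the WT value is 0.00571, and on mus neither genotype has a peak there.

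On the mus copy, the bins of all 3 genes had slightly lower scores in KO at 250 kb. Fmr1 had -0.0301 in KO and -0.000715 in WT, a difference of -0.0294. Fmr1nb had -0.00225 in KO and 0.00892 in WT, the smallest difference of the interval at -0.0112. Aff2 had -0.0222 in KO and 0.00606 in WT, a difference of -0.0283. In KO the Fmr1 bin lay at the 7.40 percentile of mus scores and in WT at the 53.7 percentile. All 16 bins were lower in KO, against 45.9% of the chromosome, but of the bins left of Dxz4 84.0% (194 of 231) were lower, so the direction was that of most bins on this side of the chromosome. The interval's median difference was -0.0308 and that of all bins left of Dxz4 -0.0216. The lowest was -0.0436, in the Mir509 bin at 68 Mb, which had -0.0402 in KO and 0.00344 in WT; it was also second highest on cas.

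The mus differences were smaller at 100 kb and that of Aff2 turned: Fmr1 had -0.000502 in KO and 0.00380 in WT, Fmr1nb -0.00239 in KO and 0.008665 in WT, and Aff2 0.00566 in KO and 0.00263 in WT. Of the 40 bins, 32 were lower in KO, against 50.5% of all bins and 75.9% of those left of Dxz4. The profiles of the genes on mus were about as alike between genotypes as those of other bins. The correlation of KO and WT profiles was 0.599 for Fmr1, 0.566 for Fmr1nb and 0.521 for Aff2, with a median of 0.491 over all bins. On mus, pairs around the edge between the Fmr1 and Fmr1nb bins differed little between the genotypes. Pairs on the left had 0.181 in KO and 0.192 in WT, on the right 0.141 in KO and 0.147 in WT, and across 0.150 in KO and 0.154 in WT. The 3 bins that Aff2 overlaps were more alike in KO on mus as well, at 0.176 in KO and 0.148 in WT. Among 100 kb bins the Aff2 pairs on mus had 0.0424 in KO and 0.0304 in WT. The boundary score of the Fmr1nb bin at 100 kb differed by -0.00564 on mus, where 49.6% of bins were higher in KO, and by 0.0118 at 250 kb, where 52.1% were.

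**Figure D5:**
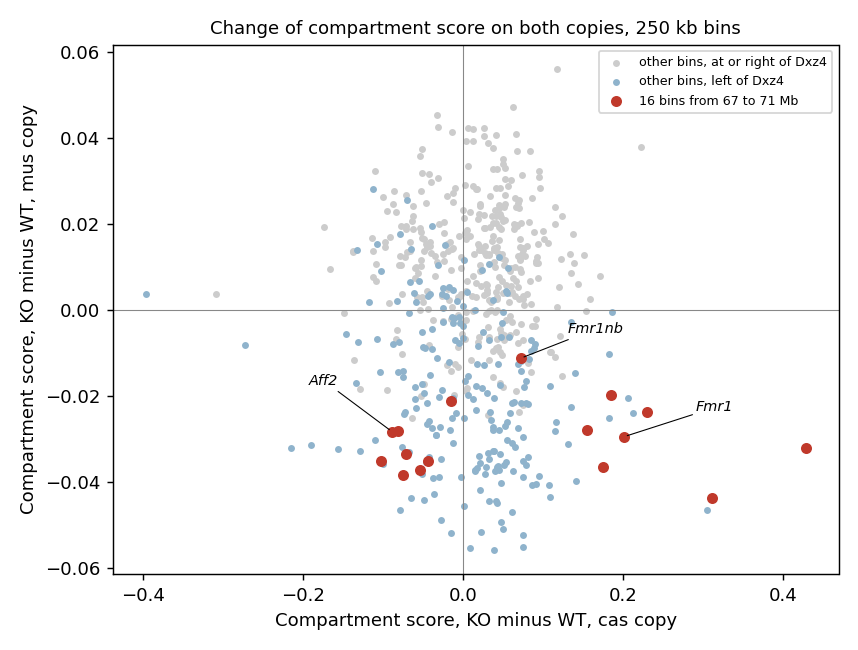
KO minus WT compartment score of every 250 kb bin on cas (x axis) and on mus (y axis), with the 16 bins from 67 to 71 Mb in red, other bins left of Dxz4 in blue and the rest in grey. All 16 red points lie below 0 on mus, and on cas they fall into 8 above and 8 below 0, with Fmr1 at 0.201, Fmr1nb at 0.0719 and Aff2 at -0.0885.

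Set against each other, the copies differed in direction for Fmr1 and Fmr1nb at 250 kb and not for Aff2, while at 100 kb they differed for Aff2 too, by -0.0546 on cas and 0.00303 on mus. A higher cas and a lower mus score in KO were found together in 8 of the 16 bins, against 28.6% of all bins and 49.8% of those left of Dxz4, so the combination that chose Fmr1 is common on its side of the chromosome. The mus and cas profiles of the Fmr1 bin had a correlation of -0.128 in KO and -0.0604 in WT, at the 1.62 percentile in KO and the 8.42 percentile in WT, where the median bin had 0.111 in KO and 0.104 in WT. Aff2 had 0.138 in KO and 0.0211 in WT, and Fmr1nb 0.0180 in KO and -0.0171 in WT. With 100 kb bins the correlation of the mus and cas profiles of Fmr1 was -0.0144 in KO and -0.0291 in WT, nearer to 0 and in the other order. That of Aff2 turned in sign and order, at -0.0308 in KO and -0.00988 in WT, and that of Fmr1nb was 0.0266 in KO and -0.0214 in WT. The profiles of Fmr1 hold the correlations that make the score differences by which it was chosen.

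Dxz4, a macrosatellite at the hinge of the inactive X, and Firre, a locus of a long noncoding RNA, stood near the low and the high end of mus pairs of like distance when paired with Fmr1 in KO. On mus the Fmr1 and Dxz4 bins had a correlation of -0.0786 in KO and -0.0542 in WT, at the 0.865 percentile of 4566 pairs in KO and the 2.88 percentile in WT. At 100 kb they had -0.0881 in KO and -0.0609 in WT, at the 0.0286 percentile in KO and the 0.562 percentile in WT. On cas the pair had 0.00194 in KO and 0.0918 in WT at 250 kb, and the reverse order, 0.0367 in KO and -0.0124 in WT, at 100 kb. With Firre the Fmr1 bin on mus had 0.212 in KO and 0.118 in WT, at the 99.6 percentile of 4013 pairs in KO and the 84.3 percentile in WT, and Aff2 had 0.208 in KO and 0.125 in WT. At 100 kb the KO value on mus stayed the higher for Fmr1, at 0.0728 in KO against 0.0529 in WT, and for Aff2, at 0.0470 in KO against 0.0407 in WT. On cas Aff2 with Firre went the other way, at 0.00929 in KO and 0.140 in WT. At 100 kb that cas pair had 0.00558 in KO and 0.0782 in WT. Fmr1 with Firre on cas had 0.0921 in KO and 0.0874 in WT, and at 100 kb 0.0159 in KO and -0.00941 in WT. With the gene of Xist, whose RNA spreads over the inactive X, Fmr1 on mus had -0.0152 in KO and -0.0587 in WT, and at 100 kb nearly equal values, -0.0150 in KO and -0.0164 in WT.

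The partners of Fmr1 on mus that kept a high or low correlation in both genotypes lay within the chromosome stretch around it. Only bins holding a gene were ranked. The highest of these in both genotypes were the bins of Gm52432 (65.5 Mb), at 0.242 in KO and 0.190 in WT, of Cdr1 (61.0 Mb), at 0.172 in KO and 0.217 in WT, and of Gm14674 (66.0 Mb), at 0.168 in KO and 0.172 in WT. The lowest in both were the bins of Pls3 (75.75 Mb), at -0.137 in KO and -0.160 in WT, of Cldn34b3 and Cldn34b4 (76.25 Mb), at -0.142 in KO and -0.111 in WT, and of Gm52433 (77.0 Mb), at -0.109 in KO and -0.134 in WT. The high partners lie left of Fmr1 and the low partners just right of Dxz4. By the same choice as on cas, the bins with the largest gains were those of Gm6027 (90.0 Mb), at 0.0832 in KO and -0.110 in WT, of Gm8855 (87.5 Mb), at -0.0182 in KO and -0.184 in WT, and of Gm7134 (110.25 Mb), at 0.186 in KO and 0.0264 in WT. The largest losses by that choice were with the bins of Maged2 (150.75 Mb), at -0.0668 in KO and 0.124 in WT, of Kdm5c (152.25 Mb), at -0.0789 in KO and 0.104 in WT, and of Gm14910 (118.0 Mb), at -0.0559 in KO and 0.118 in WT. Kdm5c encodes a histone demethylase that escapes X inactivation.

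Fmr1 and Aff2 belong to a larger group of X-linked genes that cause intellectual disability in people when mutated. The cas difference of Fmr1, which was chosen for being higher in KO, had the opposite sign to the median of that group. Of 41 such genes in 39 bins, 11 bins were higher in KO on cas and 28 lower, against 61.1% of all bins higher, with a median difference of -0.0253, against 0.0231 over all bins. Most of the listed bins lay on the A side, as 32 of the 39 had a positive cas score in WT. The value given above for how far A and B bins lie apart on cas was lower in KO, at 0.317, than in WT, at 0.359. Whether other bins of like WT score were lower in KO to the same degree was not tested. Fmr1 had the highest cas difference of the 39 bins, a rank that only describes the value by which it was chosen. The next highest was Il1rapl1, a synaptic receptor gene, at -0.378 in KO and -0.459 in WT. The lowest were Iqsec2, an exchange factor at synapses, at 0.314 in KO and 0.412 in WT, and Aff2 itself. On mus 19 bins were higher and 20 lower, against 45.9% of all bins lower. Fmr1, also chosen for a lower mus score in KO, ranked 35 of 39 there. Lower in KO there were 17 of the 22 bins left of Dxz4, and higher were 14 of the 17 right of it, the split by side that is seen over the chromosome. The highest there were Atrx, at 0.0307 in KO and -0.0146 in WT, and Huwe1, a ubiquitin ligase gene, at 0.0481 in KO and 0.00662 in WT. The lowest were Kdm6a, a histone demethylase gene, at -0.00645 in KO and 0.0372 in WT, and Zdhhc9, a palmitoyltransferase gene, at 0.0105 in KO and 0.0493 in WT. The list was written with earlier results of these data known.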

How the data were processed

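Hi-C was made by the submitters from TTF fixed with 2% formaldehyde and cut with HindIII, per the labels' protocols. The design text speaks of Xist binding, but titles, protocols and headers are those of Hi-C, as which the matrices were read. The authors deposited 8 matrices of chromosome X, 1 per genotype, copy and bin size, in HOMER format per the file headers. Each deposited value is a score, the correlation between the contact profiles of 2 bins, from -1 to 1. Tools listed in the submitters' processing notes are Juicer, HOMER, Bowtie2 and cutadapt, with mm10 as the build. For their versions, for how contacts were normalized and reads assigned to copies, and for read numbers, the answer is not given in the sources used here. Without read numbers the depth cannot be stated; with few reads correlations come out smaller, at 100 kb more so.

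Bins were kept where all 4 matrices of their size had data, which holds for 588 of 683 and 1461 of 1707. Genes were placed by their RefSeq midpoints (GRCm38.p6). Main values are from 250 kb bins at least 2 Mb apart, boundary scores from 100 kb bins. The first principal component of the averaged cas matrix set A and B, with A at its gene-rich end. Percentiles over bins are descriptions. Pairs of like distance are those at exactly the same distance where it is below 2 Mb, and within 1 Mb of it otherwise. No p-value or error was computed, because each genotype and copy has 1 combined matrix. Functions were tested on simulated matrices, with Python 3.11.15, numpy 2.4.6, pandas 2.3.3 and matplotlib 3.10.9.

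The members, the disability gene list and the tests were chosen with earlier results of these data known. The genes named are the 3 members, those in the interval's bins with the highest and lowest difference per copy, the 3 highest, lowest, most gained and most lost partner bins of Fmr1 per copy (gains and losses with the same sign at 100 kb), the 2 highest and 2 lowest of the list per copy, and Dxz4, Firre and Xist. Partner bins without a gene were left out. The bin at 67.75 Mb, the gene Fmr1os, the edge at Fmr1nb, the boundary score and the microRNA sequences were added after values were seen. The settings varied were bin size, a 5 Mb minimum distance, division by the SD of a matrix, 10% classes, classes from WT cas alone, subtraction of the mean of each distance, rank correlation, all bins a gene overlaps and other windows.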

Additional observations from a re-analysis of the deposited data

Results flagged for a closer look

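Some values went opposite ways on the cas and the mus copy in KO relative to WT; the difference between the copies was not tested, since each genotype and copy has 1 matrix. The compartment score of the Fmr1 bin differed by 0.201 on cas and by -0.0294 on mus, and Fmr1 was chosen for this. The Fmr1nb bin differed by 0.0719 on cas and by -0.0112 on mus. The median over the 16 bins from 67 to 71 Mb differed by 0.0283 on cas, where 8 bins were higher and 8 lower in KO and the median of all bins was 0.0231, and by -0.0308 on mus, where the median of bins left of Dxz4 was -0.0216. The boundary score of the Fmr1nb bin at 100 kb differed by 0.0429 on cas and by -0.00564 on mus. Scores are far smaller on mus than on cas over the whole chromosome, so the sizes cannot be set against each other.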

How the results depend on the processing

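A value is called moved where an alternative changed it by more than 1.5 times, as there is no replicate spread, and all differences are KO minus WT. Of 36 alternatives on cas over 7 results, 25 kept the value within 1.5 times, 9 moved it and 2 reversed it; of 36 on mus, 25 kept it, 6 moved it and 5 reversed it. With 100 kb bins the cas differences were 0.0468 for Fmr1, 0.0280 for Fmr1nb, -0.0546 for Aff2 and 0.0119 for the interval's median, and the mus differences -0.00430 for Fmr1, 0.00303 for Aff2 (reversed) and -0.00416 for the median. The correlation of the KO and WT profiles of Fmr1 was then 0.0610 on cas (reversed) and 0.255 on mus, and the difference of Fmr1 with Aff2 was -0.00497 on cas and -0.0523 on mus. With each matrix divided by its SD, the cas difference was 0.0401 for Fmr1nb and 0.0112 for the interval's median, and Fmr1 with Aff2 on mus reversed to 0.0112; subtracting the mean of each distance reversed that value to 0.00608. Over all 100 kb bins of both genes Fmr1 with Aff2 on cas reversed to 0.000286. With 10% classes Fmr1nb on mus was -0.00233. The boundary difference at Fmr1nb was 0.0134 on cas and 0.00221 on mus (reversed) with a 2 Mb window, 0.131 on cas and 0.0118 on mus (reversed) with 250 kb bins, and -0.0161 on mus with a 500 kb window, settings added after the data were seen. The cause of these changes was not tested. No paired analysis was possible because the replicates were combined in the deposited matrices. Depth is unknown, so how far it limits the 100 kb values was not measured.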
